A study of Macaca mulatta with 7 samples.

Results

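The 8 genes described here encode proteins by which astrocytes handle glutamate, GABA, water, urea and signals from neighbouring cells: SLC1A2, SLC1A3, GLUL, SLC6A11, AQP4, SLC14A1, GJA1 and EDNRB. They were taken by symbol from the deposited gene tables, and all 8 of 8 were found among 28966 gene symbols or identifiers. Their levels were read in nuclei of the spinal cord of adult female rhesus monkeys by 10x single-nucleus RNA sequencing, which counts transcripts as unique molecular identifiers (UMIs) per nucleus. Of 63730 nuclei kept, 3804 were astrocyte-like.

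The study asked how cells of the lumbar cord, below the lesion, differ from those of the intact cord after a thoracic segment of the cord was removed. Cervical, thoracic and lumbar cord came from an untreated animal aged 5 years, which by the study's account of its animals was 1 monkey. Lumbar cord was taken 7 days and 14 days after complete thoracic injury from animals aged 7 years, and 30 days and 6 months after it from animals aged 6 years (7 dpi, 14 dpi, 30 dpi and 6 mpi). Each of the 7 groups was 1 library, so no group had a replicate and no test of a condition was possible. Animal, age, library and injury cannot be told apart in any comparison of an injured with an intact library.

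Astrocytes take up the glutamate that neurons release, mainly through the transporters encoded by SLC1A2 (GLT-1, EAAT2) and SLC1A3 (GLAST, EAAT1), and turn it into glutamine with glutamine synthetase, the product of GLUL. SLC6A11 encodes the GABA transporter GAT-3, AQP4 the water channel of the astrocyte endfoot, and SLC14A1 a urea transporter. GJA1 encodes connexin 43, the main gap junction protein of astrocytes, and EDNRB the endothelin B receptor, a G protein-coupled receptor for peptides that rise in injured tissue. Astrocytes of white matter are fibrous and rich in GFAP, and those of gray matter are protoplasmic and wrap synapses.

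In the Mmul_10 annotation of RefSeq, SLC1A2 lay on chromosome 14 at 30047334 to 30211959 (plus strand, up to 11 exons) and SLC1A3 on chromosome 6 at 36421009 to 36505464 (plus strand, up to 10 exons). GLUL lay on chromosome 1 at 39623412 to 39629245 (minus strand, up to 6 exons) and SLC6A11 on chromosome 2 at 142228861 to 142351426 (plus strand, up to 14 exons). GJA1 lay on chromosome 4 at 24941961 to 24960480 (plus strand, up to 3 exons). AQP4 and SLC14A1 were both on chromosome 18, AQP4 at 55583676 to 55597371 (plus strand, up to 5 exons) and SLC14A1 at 36702210 to 36730146 (minus strand, up to 9 exons). EDNRB lay on chromosome 17 at 59709777 to 59734504 (minus strand, up to 8 exons). The last 3 genes each overlapped an unnamed locus on the opposite strand, LOC114673705 for AQP4, LOC106994488 for SLC14A1 and LOC114673590 for EDNRB.

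The libraries held 45079131 to 150987900 UMIs in 6134 to 12015 barcodes, and the 6 mpi library was the shallowest. After filters, 5637 to 11002 nuclei per library were kept, with median depths of 3191 to 7355 UMIs. Any pair of libraries shared 12 to 36 barcode sequences. Nuclei were called astrocyte-like by cluster, from 8 marker genes that include GFAP, ALDH1L1 and SOX9 but none of the 8 genes studied, which were also left out of the genes used for clustering. Intact cervical, thoracic and lumbar cord gave the class 870, 1393 and 953 nuclei, and the injured libraries gave it 98, 238, 143 and 109 nuclei at 7 dpi, 14 dpi, 30 dpi and 6 mpi. All 8 markers had UMIs in the class in every library. Their summed level, as UMIs per 1000000 UMIs of the class (CPM), was 2192 to 2964 in intact cord and 4249 to 5970 in injured cord. Most of the higher sum was GFAP, at 939 to 1545 CPM in intact and 2775 to 4846 CPM in injured libraries. Several other markers went the other way at 7 dpi, but not at every later time. At 7 dpi ALDH1L1 was at 51.7 CPM against 97.6 to 123 CPM in intact cord, and NDRG2 at 167 CPM against 226 to 254 CPM. BMPR1B and FGFR3 were also below their intact ranges at 7 dpi, and RYR3 was so in every injured library, on 2 to 6 UMIs. At 7 dpi SOX9 was above its intact range and ADGRV1 inside it. ALDH1L1 (76.1 CPM) and NDRG2 (174 CPM) were also below their intact ranges at 30 dpi. At 6 mpi both were above them, at 173 CPM and 407 CPM, as were ADGRV1 (833 CPM) and FGFR3 (21.4 CPM, on 12 UMIs). BMPR1B was above its intact range of 562 to 592 CPM at 14 dpi, 30 dpi and 6 mpi, at 685, 762 and 635 CPM.

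The class consisted of 2 clusters, and both were present in every library. From 5 markers each, the first was named white-matter type (IL33, VCAN, CD44, GFAP and TNC) and the second gray-matter type (ITPRID1, GPC5, GRM3, SLC7A10 and CHRDL1). Of the astrocyte-like nuclei, 59.8% were white-matter type in intact cervical, 80.8% in intact thoracic and 51.2% in intact lumbar cord. At 7 dpi, 14 dpi, 30 dpi and 6 mpi they made up 60.2%, 32.8%, 65.7% and 27.5%. Because the mix of types differed among libraries, each gene is given for all astrocyte-like nuclei and for each type. The types rest on few nuclei after injury, with 30 white-matter type nuclei at 6 mpi and 39 gray-matter type nuclei at 7 dpi as the smallest groups. A further cluster of 704 nuclei, led by ITGB4 and SLC14A1, carried markers of more than 1 class. It was left unnamed and out of the class, and held 147, 451 and 57 nuclei in the intact and 5, 21, 11 and 12 nuclei in the injured libraries.

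Across the classes of nuclei, 6 of the 8 genes were highest in astrocyte-like nuclei in all 7 libraries, comparing classes with at least 50 nuclei. These were SLC1A2, SLC6A11, AQP4, SLC14A1, GJA1 and EDNRB. The classes named were astrocytes, ependymal cells, oligodendrocytes, their precursors, microglia, neurons and T cells. Clusters led by endothelial (150 nuclei) and fibroblast (83 nuclei) markers also carried pericyte markers and were left unnamed. The genes were therefore not compared with vascular or fibroblast nuclei. In oligodendrocyte-like nuclei their levels were low, from 0.592 CPM for SLC14A1 to 14.3 CPM for AQP4. SLC1A2 had a second site in nuclei of oligodendrocyte precursors (OPC-like), at 391 to 603 CPM, compared with 1718 to 5559 CPM in astrocyte-like nuclei. In neuron-like nuclei SLC1A2 was at 70.9 to 105 CPM and SLC6A11 at 30.9 to 59.3 CPM. Ependymal-like nuclei, which had at least 50 nuclei only in the 3 intact libraries, held AQP4 at 188 to 279 CPM and GJA1 at 34.7 to 69.3 CPM.

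SLC1A3 and GLUL did not follow this order. SLC1A3 was highest in ependymal-like nuclei in the 3 intact libraries, at 920.1 to 1085 CPM, against 746 to 829.8 CPM in their astrocyte-like nuclei. It was also high in microglia-like nuclei, at 341 to 919 CPM over the 7 libraries. In intact lumbar cord the microglia-like level of 919 CPM was above the astrocyte-like level of 763 CPM. GLUL was highest in oligodendrocyte-like nuclei in all 7 libraries, at 183 to 358 CPM, and the astrocyte-like range of 87.3 to 349 CPM overlapped it. The ranges of SLC1A3 in astrocyte-like and microglia-like nuclei overlapped too. Within libraries GLUL was higher in oligodendrocyte-like than in astrocyte-like nuclei in 7 of 7, but at 7 dpi, 14 dpi, 30 dpi and in intact lumbar cord the counting intervals of the classes overlapped. SLC1A3 was higher in astrocyte-like than in microglia-like nuclei in 6 of 7 libraries, all but intact lumbar cord.

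**Figure D1:**
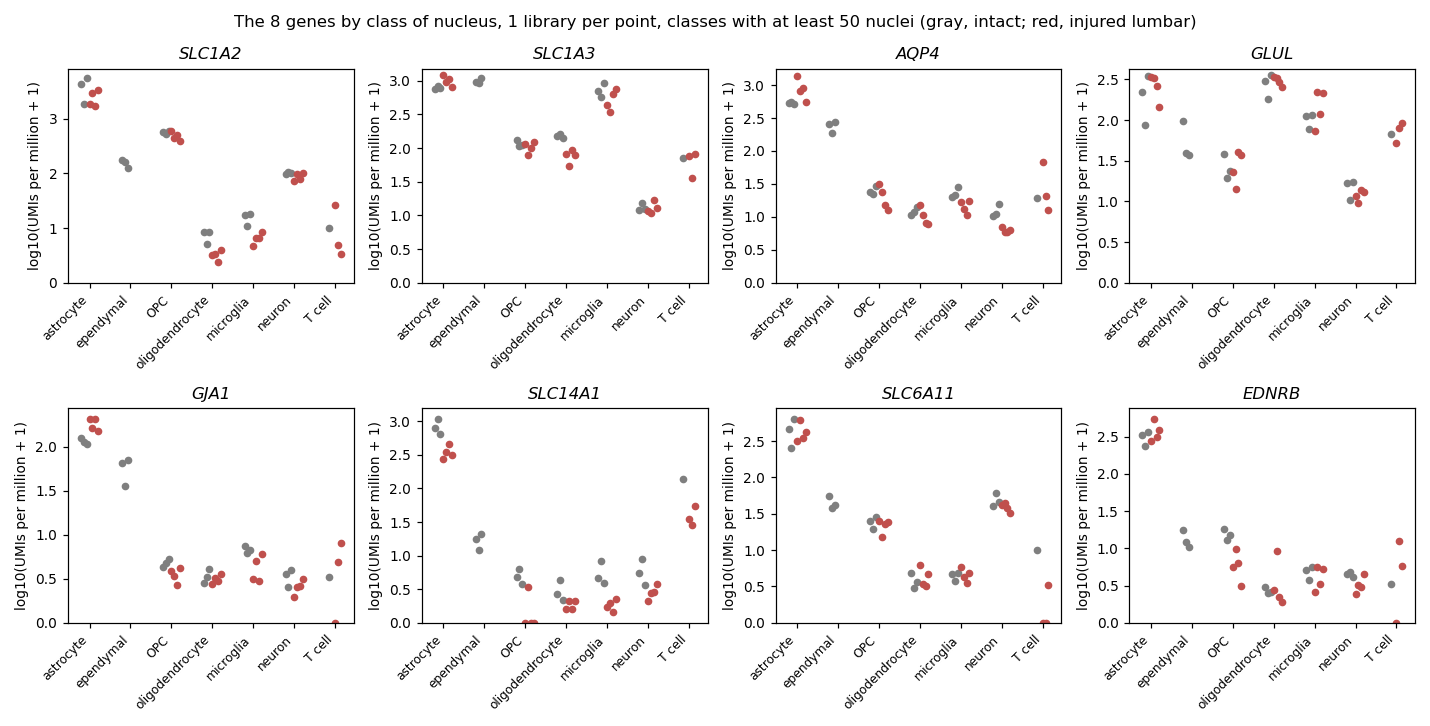
Level of each gene, as log10(CPM + 1), in each class of nucleus with at least 50 nuclei, 1 point per library (gray, intact; red, injured lumbar; classes carry the names given in the text without "-like"). Among the classes shown, which include no vascular or fibroblast class, SLC1A2, AQP4, GJA1, SLC14A1, SLC6A11 and EDNRB are highest in astrocytes in every library. SLC1A3 is also high in ependymal and microglial nuclei and GLUL in oligodendrocytes.

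Within the astrocyte-like class, the genes divided by type of astrocyte. In all 7 libraries SLC1A2, SLC6A11, GLUL and EDNRB were higher in gray-matter type nuclei, and SLC14A1, AQP4, GJA1 and SLC1A3 in white-matter type nuclei. The counting interval of the ratio included 0 for SLC1A3 at 30 dpi and 6 mpi and for GJA1 at 7 dpi and 14 dpi. SLC1A2 differed the most among the first set, with log2 ratios of white over gray of -3.31 to -3.10 in intact and -3.07 to -2.02 in injured libraries. In intact lumbar cord it stood at 8936 CPM in gray-matter type and 1045 CPM in white-matter type nuclei. SLC14A1 went the other way, at 160.2 CPM in gray-matter type and 1320.4 CPM in white-matter type nuclei of intact lumbar cord, a log2 ratio of 3.03. The ratios of AQP4 were 0.81 to 1.24 and those of SLC1A3 0.10 to 0.79 over the 7 libraries. The types had been named from other genes, but the genes' own types are clusters of the same nuclei, so these ratios describe the types and were not tested.

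For the comparison of injured with intact cord, a gene was counted as higher or lower in an injured library when its level differed at least 2-fold from intact lumbar cord, with 1 CPM added to both, and lay outside the range of the 3 intact libraries. Brackets below hold 95% intervals, exact Poisson for levels, exact conditional binomial for log2 ratios and Clopper-Pearson for shares of nuclei, and these cover counting error only. The 3 intact libraries came from 1 monkey by the study's account, so their range holds no spread between animals. Where all injured levels are said to lie apart from all intact ones, the share of all genes that did so is not given. Over all astrocyte-like nuclei, 2 of the 8 genes were lower and 1 was higher at 7 dpi, where 4.44% of 7051 genes tested were lower and 9.12% higher. At 14 dpi none of the 8 genes was counted, against 1.43% lower and 2.79% higher among all genes tested. At 30 dpi 1 gene was lower (2.6% of all genes; 4.41% higher) and at 6 mpi 1 gene was lower (3.77% of all genes; 6.64% higher). The median log2 ratio of the 8 genes was -0.22, 0.13, -0.31 and -0.26 at the 4 times in order, against 0.07, 0.03, 0.03 and 0.07 over all genes tested. The 8 genes did not move as a group, and those that stood apart from intact cord did so in both directions. For white-matter type nuclei, 1, 0, 1 and 2 of the 8 genes were lower and 2, 1, 1 and 0 higher in order of time. Of the 7193 genes tested there, 8.17%, 3.74%, 3.21% and 9.09% were lower and 10.6%, 4.09%, 3.7% and 12.2% higher. In gray-matter type nuclei 1, 1, 1 and 2 were lower and 2, 0, 0 and 0 higher, against 5.46%, 2.04%, 4.18% and 4.09% lower and 9.64%, 4.21%, 5.25% and 8.15% higher among 6703 genes tested.

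**Figure D2:**
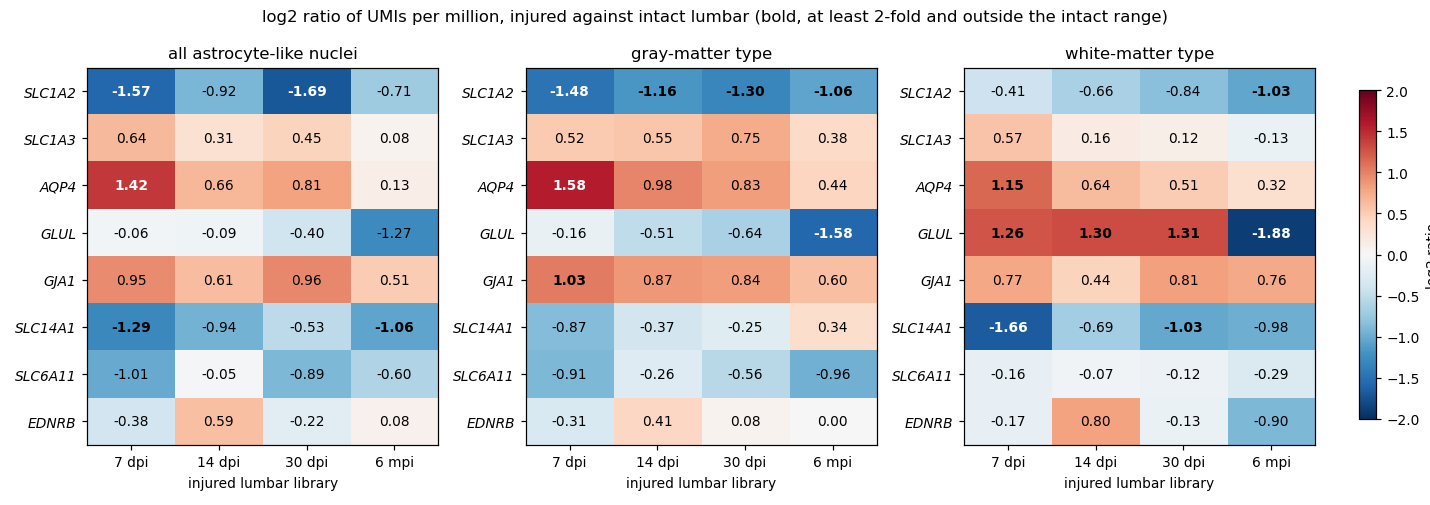
log2 ratio of the CPM of each gene in each injured lumbar library against intact lumbar cord, for all astrocyte-like nuclei and for each type (bold, at least 2-fold and outside the range of the 3 intact libraries). SLC1A2 is at -1.06 or below in gray-matter type nuclei at all 4 times, AQP4 and GJA1 are above 0 in every cell, and GLUL differs in sign between the types at 7 dpi, 14 dpi and 30 dpi.

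SLC1A2, the main glutamate transporter of astrocytes, was lower in gray-matter type nuclei of every injured library. Its level there was 8220.0, 6503 and 8936 CPM in intact cervical, thoracic and lumbar cord, and 3202, 3996, 3622 and 4285 CPM at 7 dpi, 14 dpi, 30 dpi and 6 mpi. The 4 injured libraries all lay below the 3 intact ones, and the ranges did not overlap. Against intact lumbar cord the level was 2.79-fold lower at 7 dpi (log2 ratio -1.48 [-1.57, -1.40]) and 2.24-fold lower a week later (-1.16 [-1.21, -1.12]). The 30 dpi library was 2.47-fold lower (-1.30 [-1.37, -1.24]) and the 6 mpi library 2.09-fold lower (-1.06 [-1.13, -0.99]).

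The lower level of SLC1A2 was seen across the gray-matter type nuclei and was not limited to a few of them. The lower quartile, median and upper quartile over single nuclei were 5283, 8099 and 11012 CPM in intact lumbar cord. The injured medians were 2894, 3135, 3338 and 3903 CPM in order of time, each below the lower quartile of intact lumbar cord. Only the 6 mpi library had an upper quartile, 6158 CPM, above that lower quartile. Intact thoracic cord was lower, with a lower quartile of 3637 CPM and a median of 5881 CPM. Every injured median was below this thoracic median. The 6 mpi median and every injured upper quartile, 4125 to 6158 CPM, were above the thoracic lower quartile, so single nuclei overlapped more with that library. When every nucleus was thinned to 1000 UMIs, 97.7%, 95.5% and 99.4% of intact gray-matter type nuclei still held a UMI of SLC1A2, as did 87.2%, 91.9%, 89.8% and 91.1% of injured ones. Without thinning the shares were 97.4% or more in every library, and in thinned oligodendrocyte-like nuclei, which should lack the gene, they were 0.2% to 1.0%. Most injured nuclei thus still held the transcript, at a lower level.

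In white-matter type nuclei SLC1A2 was lower to begin with, at 863, 653 and 1045 CPM in the intact and 787, 663, 585 and 509.6 CPM in the injured libraries. The 7 dpi and 14 dpi libraries lay inside the intact range and the 30 dpi and 6 mpi libraries below it. Only the 6 mpi level, with 68 UMIs behind it, was at least 2-fold lower (log2 ratio -1.03). In the class as a whole the levels were 4196, 1878 and 5559 CPM in intact and 1874, 2946, 1718 and 3386 CPM in injured libraries. The ratios to intact lumbar cord were -1.57, -0.92, -1.69 and -0.71, and the 7 dpi level lay only just below that of intact thoracic cord, so that its count as lower rests on this margin. The intact thoracic library, with 80.8% white-matter type nuclei, was itself 2.96-fold below intact lumbar cord. Within gray-matter type nuclei this difference between intact levels was 1.37-fold.

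SLC1A3, the other glutamate transporter, was not lower than in intact lumbar cord in any injured library when all astrocyte-like nuclei were taken. It stood at 746, 829.8 and 763 CPM in all intact astrocyte-like nuclei and at 1191, 945, 1045 and 805 CPM in the injured ones. The levels at 7 dpi, 14 dpi and 30 dpi lay above the intact range and the 6 mpi level inside it. The log2 ratios were 0.64, 0.31, 0.45 and 0.08, all under the 2-fold limit. In gray-matter type nuclei, where SLC1A2 was lower, SLC1A3 was at 614, 784 and 593 CPM in intact and 849.6, 872, 997 and 773 CPM in injured libraries. White-matter type nuclei had their highest level of SLC1A3 at 7 dpi, 1471 CPM against 842 to 989.7 CPM in intact cord.

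GLUL, glutamine synthetase, was the only one of the 8 genes that was counted as higher in one type of astrocyte in libraries where its level in the other type was below that of intact lumbar cord. In white-matter type nuclei its level was 53 CPM in cervical, 34 CPM in thoracic and 85.6 CPM in lumbar intact cord, and 207, 213, 214 and 22.5 CPM at 7 dpi, 14 dpi, 30 dpi and 6 mpi. The first 3 injured libraries were above the intact range, each over 2-fold higher than intact lumbar cord, with log2 ratios of 1.26 [0.91, 1.62], 1.30 [0.99, 1.63] and 1.31 [1.05, 1.59]. The 6 mpi value rests on 3 UMIs in 30 nuclei, with an interval of 4.64 to 65.7 CPM. It was counted as lower (log2 ratio -1.88 [-4.22, -0.37]), but the interval holds the cervical and thoracic levels and lies below that of lumbar cord alone. Thinned to 1000 UMIs, 8.8% [6.5, 11.7] of white-matter type nuclei held a GLUL UMI in intact lumbar cord and 12.8% to 14.1% did at 7 dpi to 30 dpi, with intervals that overlapped. Unthinned shares were 30.5% in intact lumbar cord and 35.9% to 57.6% at these times, and thinned neuron-like nuclei, which have little of the enzyme, gave 1.0% to 2.8%.

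In gray-matter type nuclei GLUL was at 419, 289 and 547 CPM in intact cord and 491, 383, 349.7 and 183 CPM in injured cord. The 7 dpi, 14 dpi and 30 dpi levels lay inside the intact range. The 6 mpi level was below it and 2.98-fold lower than intact lumbar cord (log2 ratio -1.58 [-1.93, -1.26]). Both types together gave GLUL at 219, 87.3 and 349 CPM in intact and 334, 329, 264 and 145 CPM in injured libraries, and every injured level lay inside the intact range. The intact thoracic library set the lower end of that range. It was 3.97-fold below intact lumbar cord, compared with 2.47-fold in white-matter type and 1.89-fold in gray-matter type nuclei.

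SLC6A11, the GABA transporter, was mostly a gene of gray-matter type nuclei, at 887, 837 and 1005 CPM in intact cord. It was at 536, 838, 683 and 515 CPM in injured cord, so that the 14 dpi library lay inside the intact range and the other 3 below it. The log2 ratios were -0.91, -0.26, -0.56 and -0.96, short of 2-fold. In white-matter type nuclei all 4 injured levels, 127 to 149 CPM, fell between the lowest and highest intact level, 95.2 and 156 CPM. Over all astrocyte-like nuclei the intact levels were 459.6, 251 and 641 CPM and the injured levels 318, 621, 345 and 423 CPM. The 7 dpi level was 2.01-fold lower than intact lumbar cord but inside the intact range, and was not counted.

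**Figure D3:**
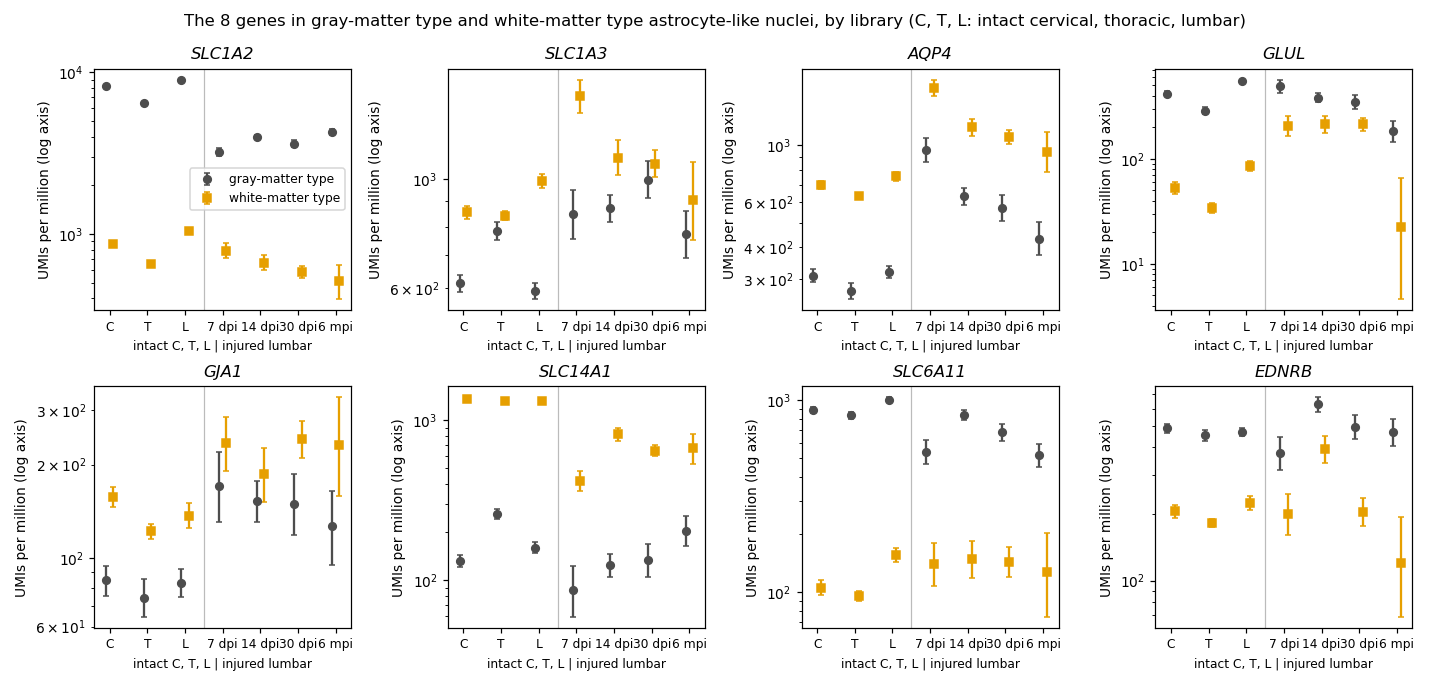
Level of each gene as CPM (log axis) in gray-matter type and white-matter type astrocyte-like nuclei, by library, with exact Poisson intervals for counting error. All 4 injured libraries lie below the 3 intact ones for SLC1A2 in the gray-matter type and SLC14A1 in the white-matter type, and above them for AQP4 and GJA1 in both types.

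AQP4, the water channel, was higher in injured cord in both types of astrocyte, and most so at 7 dpi. In white-matter type nuclei it was at 702, 636 and 756 CPM in intact and 1678, 1175, 1079 and 944 CPM in injured libraries. In gray-matter type nuclei it was at 311, 271 and 320.0 CPM in intact and 956, 633, 570.4 and 433 CPM in injured libraries. In each type all 4 injured libraries were above all 3 intact ones, and the values stood in the order of time, from the highest at 7 dpi to the lowest at 6 mpi. At 7 dpi the log2 ratio to intact lumbar cord was 1.15 in white-matter type and 1.58 in gray-matter type nuclei, the latter a 2.98-fold difference. The later ratios, 0.32 to 0.98, were under the 2-fold limit. With 1 animal at each time, the order of times is also an order of animals.

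Over all astrocyte-like nuclei AQP4 was at 524, 559 and 507 CPM in intact cord and 1353, 804, 889 and 555 CPM in injured cord. The 7 dpi level was 2.67-fold higher than in intact lumbar cord (log2 ratio 1.42 [1.32, 1.51]). The 6 mpi level lay just inside the intact range. That library had the smallest share of white-matter type nuclei, the type in which AQP4 is higher. The part of the mix of types in this level was not tested. Over single nuclei, the median in white-matter type nuclei was 533 to 630 CPM in intact libraries and 1363, 1070, 923 and 631 CPM in injured libraries. Thinned to 1000 UMIs, 78.0% [65.3, 87.7] of white-matter type nuclei held an AQP4 UMI at 7 dpi, against 44.8% to 47.5% in intact cord. The share was 0.8% to 1.7% in thinned oligodendrocyte-like nuclei. Without thinning, white-matter type nuclei of all libraries were at 86.7% to 95.2%.

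SLC14A1, the urea transporter, had the largest ratio of white-matter over gray-matter type level of the 8 genes in every library, and in white-matter type nuclei it was lower in every injured library. The intact libraries were close to each other at 1356, 1314 and 1320.4 CPM, and the injured libraries were at 418, 817, 646 and 667 CPM. The ranges did not overlap. On the log2 scale the 7 dpi library differed from intact lumbar cord by -1.66 [-1.88, -1.45] and the 30 dpi library by -1.03 [-1.16, -0.91]. The 14 dpi and 6 mpi libraries, at -0.69 and -0.98, came short of 2-fold. Thinned to 1000 UMIs, 66.2% to 68.5% of intact white-matter type nuclei held a UMI of SLC14A1, compared with 25.4% at 7 dpi, the lowest, and 52.6%, the highest, at 14 dpi. Without thinning the shares were 96.7% to 98.3% in intact and 64.4% to 92.6% in injured libraries. In oligodendrocyte-like nuclei thinned alike, 0.1% to 0.4% held one. Median levels over single nuclei were 1156 to 1192 CPM in intact and 338 to 586 CPM in injured libraries.

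In gray-matter type nuclei SLC14A1 was low, at 132, 259 and 160.2 CPM in intact and 86.9, 124, 135 and 204 CPM in injured libraries. The 7 dpi and 14 dpi levels were below the intact range and the later ones inside it, and at 6 mpi the level was above that of intact lumbar cord (log2 ratio 0.34). The class as a whole had SLC14A1 at 801, 1093 and 657 CPM in intact and 269, 342, 455 and 314 CPM in injured libraries, again without overlap. The level was 2.44-fold lower than in intact lumbar cord at 7 dpi (log2 ratio -1.29 [-1.49, -1.09]) and 2.09-fold lower at 6 mpi (-1.06 [-1.29, -0.85]). At 14 dpi and 30 dpi it was 1.92-fold and 1.44-fold lower. The mixed cluster led by ITGB4 and SLC14A1 was not counted here. In intact libraries it held 147, 451 and 57 nuclei, beside 870, 1393 and 953 astrocyte-like nuclei. In injured libraries it held 5, 21, 11 and 12 nuclei, beside 98, 238, 143 and 109 astrocyte-like nuclei. Its part in the level of SLC14A1 was not tested.

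**Figure D4:**
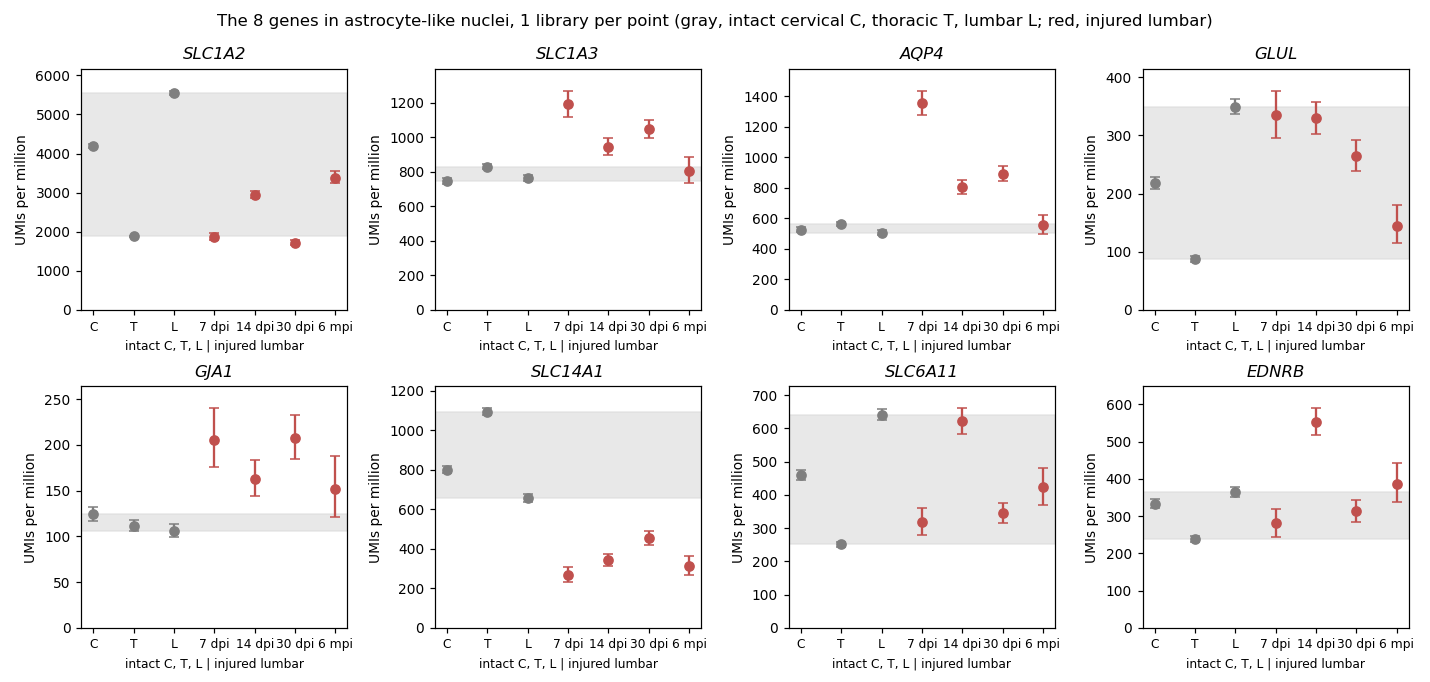
Level of each gene as CPM in all astrocyte-like nuclei, 1 point per library with the exact Poisson interval (gray, intact cervical C, thoracic T and lumbar L; red, injured lumbar; the band spans the 3 intact libraries). GJA1 is above the band and SLC14A1 below it in all 4 injured libraries, and the wide bands of SLC1A2, GLUL and SLC6A11 reach down to the thoracic library.

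GJA1, connexin 43, had a higher summed level in all 4 injured libraries in each type of astrocyte. White-matter type nuclei had it at 158, 122 and 137 CPM in intact and 234, 186, 242 and 232 CPM in injured libraries. Gray-matter type nuclei had it at 84.5, 74.3 and 83.1 CPM in intact and 171, 152, 149.6 and 126 CPM in injured libraries. Injured and intact values did not overlap in either, with no share of all genes that separated in this way to set beside it. The differences were modest, 1.42-fold to 1.94-fold over all astrocyte-like nuclei, and only the gray-matter type value at 7 dpi reached 2-fold (log2 ratio 1.03). The white-matter type value at 6 mpi rests on 31 UMIs. Medians over single nuclei did not separate the groups in this type, at 61.5 to 105 CPM in intact libraries and from 0 CPM at 6 mpi to 150.5 CPM at 30 dpi in injured ones. In gray-matter type nuclei the median was 0 CPM in the 3 intact libraries and at 6 mpi, and 73.0 to 101 CPM at the other times.

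EDNRB, the endothelin B receptor, had its highest level at 14 dpi. In all astrocyte-like nuclei it was at 334, 239 and 365 CPM in intact and 280.2, 552, 313 and 387 CPM in injured libraries. The 14 dpi library was the highest also in white-matter type nuclei, at 392 CPM against 182 to 225 CPM in intact cord, and in gray-matter type nuclei, at 626 CPM against 454 to 488 CPM. None of the log2 ratios, -0.90 to 0.80, reached 2-fold.

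Single astrocyte-like nuclei thinned to 1000 UMIs held UMIs of a median of 3 of the 8 genes in every library but intact thoracic cord, where it was 2. At least 4 of the 8 genes were seen in 19.96% of thoracic, 28.4% of cervical and 33.2% of lumbar nuclei of intact cord, and in 27.5% to 39.1% of nuclei over the injured libraries. The number of these genes seen per nucleus therefore did not separate injured from intact cord.

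Among intact regions, the 8 genes of the cervical library all lay within 2-fold of the lumbar library, where 0.213% of genes tested were lower and 0.695% higher. In the thoracic library 3 of the 8 genes, SLC1A2, GLUL and SLC6A11, were at least 2-fold lower, against 1.8% of genes tested lower and 1.99% higher. All 3 are genes of gray-matter type nuclei, and the thoracic library had the largest share of white-matter type nuclei. Within gray-matter type nuclei none of the 8 genes was 2-fold lower (0.373% of genes tested), and within white-matter type nuclei GLUL was (0.417%).

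Other genes of the same pathways were read from 6 lists of 62 genes, of which 37 were tested in astrocyte-like nuclei. Of 10 genes of glutamate, GABA and glycine handling, 1 was lower and 2 were higher at 7 dpi, 1 was higher at 14 dpi, 1 was lower and 2 were higher at 30 dpi, and 1 was higher at 6 mpi. Over all genes tested at these times, 4.44%, 1.43%, 2.6% and 3.77% were lower and 9.12%, 2.79%, 4.41% and 6.64% higher. GLUD1, glutamate dehydrogenase, which breaks down glutamate, was higher at all 4 times. It stood at 123, 132 and 141 CPM in intact and 443, 346, 293 and 289 CPM in injured libraries, with log2 ratios of 1.65, 1.29, 1.05 and 1.03. Its injured levels were also above all intact ones within each type, at 121 to 157 CPM in intact and 306 to 450 CPM in injured white-matter type nuclei, and at 127 to 139 CPM and 271 to 435 CPM in gray-matter type nuclei. In white-matter type nuclei the 30 dpi level was just short of 2-fold and was not counted. The other calls of this list were SLC38A1, a neutral amino acid transporter, higher at 7 dpi and 30 dpi, and GOT1, an aspartate aminotransferase, lower at the same times. The GOT1 levels, 42.9 CPM [29.7, 60.0] and 43.3 CPM [33.2, 55.5], lay just below intact thoracic cord at 45.6 CPM. Both intervals held the thoracic level, so the GOT1 calls rest on this margin.

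Of 9 tested genes for the endfoot and water, 1 was higher at 7 dpi and another at 6 mpi, with 9.12% and 6.64% of all genes tested higher at these times. Single calls in a list of this size are close to those shares and say nothing of the list. The first was MLC1, a membrane protein of the endfoot, at 95.6 to 136 CPM in intact cord and 237 CPM at 7 dpi. The second was AGRN, a basement membrane proteoglycan, at 46.1 to 51.7 CPM in intact cord and 141 CPM at 6 mpi. Over all astrocyte-like nuclei, the dystrophin complex members DMD, DTNA, DAG1, SNTB1 and UTRN were not counted at any time. For this list, calls within types are given below as counts only. Of 9 genes for potassium and other ions, the sodium pump subunit ATP1B2 was higher at 7 dpi, at 414 CPM against 82.4 to 180.2 CPM in intact cord.

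Over all astrocyte-like nuclei no tested gene was counted at any time in the lists for gap junctions, for urea and nutrient transport, or for the endothelin system, with 2, 5 and 2 genes tested. This did not hold within types, where each of the 6 lists had calls in at least 1 type. These were 0 to 2 genes in each direction per list and time, of 2 to 10 tested in a list. In the endfoot and water list of white-matter type nuclei, 1 of 10 genes tested was lower at 7 dpi, 14 dpi and 30 dpi, where 8.17%, 3.74% and 3.21% of all genes tested were lower. In the same list and type 1, 1, 0 and 2 genes were higher in order of time, against 10.6%, 4.09%, 3.7% and 12.2% of all genes tested. In the gap junction list 1 of 2 genes tested was lower in white-matter type nuclei at 30 dpi, where 3.21% of all genes tested were lower. In gray-matter type nuclei 1 of 2 was lower at 6 mpi, where 4.09% were. Over all astrocyte-like nuclei GJB6, connexin 30, the other main astrocyte connexin, was at 36.0 to 92.0 CPM in intact and 48.2 to 71.2 CPM in injured cord. Among relatives of the 8 genes, the neuronal glutamate transporter SLC1A1 was at 4.73 to 8.37 CPM over the 7 libraries. GJC1, connexin 45, was under the level set for testing, at 0.514 to 2.29 CPM in intact and 6.31 to 39.1 CPM in injured libraries, the lowest from 5 UMIs. Also under that level, the amino acid transporter SLC7A5 was at 2.57 to 3.97 CPM in intact cord and had 1 to 3 UMIs per injured library, with counting intervals that reached the level of intact lumbar cord. The endothelin A receptor EDNRA was at 8.87 to 13.9 CPM in intact cord and at 13.9, 5.93, 51.6 and 17.8 CPM in injured cord. SLC1A6 was at 0 to 5.05 CPM, and SLC1A7, AQP9 and SLC14A2 were each under 1 CPM in every library.

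Markers of other classes in astrocyte-like nuclei moved with some of these differences. All 7 microglial markers had UMIs in the class, with a summed level of 20.4 to 49.7 CPM in intact and 69.6 to 207 CPM in injured libraries, highest at 7 dpi. The summed level of the 5 oligodendrocyte markers found was 529, 699 and 265 CPM in intact cervical, thoracic and lumbar cord. In injured libraries it was 798, 256, 424 and 680 CPM in order of time. The 6 markers of oligodendrocyte precursors summed to 966 to 1673 CPM in intact cord. In injured cord they summed to 843, 1506, 849 and 551 CPM in order of time, with CSPG4 at 0 at 7 dpi, 30 dpi and 6 mpi. The 6 ependymal markers summed to 244 to 280.2 CPM in intact cord and to 415 CPM at 7 dpi, 226 CPM at 14 dpi, 351 CPM at 30 dpi, where FOXJ1 was at 0, and 259 CPM at 6 mpi. The 7 dpi and 30 dpi libraries were also those with the highest levels of SLC1A3 in astrocyte-like nuclei, 1191 and 1045 CPM. The part of these markers in the differences of the 8 genes was not tested. When nuclei with as many markers of another class as of astrocytes were left out, AQP4 and SLC14A1 were still counted at 7 dpi, SLC1A2 at 30 dpi and SLC14A1 at 6 mpi. SLC1A2 was then no longer counted at 7 dpi, and GJA1 reached 2-fold at 7 dpi and 30 dpi.

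In 2 classes other than astrocyte-like nuclei, SLC1A3 was counted as lower in some injured libraries. In microglia-like nuclei it was at 701, 571 and 919 CPM in intact and 432, 341, 637 and 755 CPM in injured libraries. It was counted as lower at 7 dpi and 14 dpi (log2 ratios -1.09 and -1.43), where 4.2% and 2.98% of genes tested were lower, and lay inside the intact range at 30 dpi and 6 mpi. In oligodendrocyte-like nuclei it was at 141 to 159.7 CPM in intact and 53.8 to 91.9 CPM in injured libraries, with the 14 dpi library counted (log2 ratio -1.38; 1.59% of genes tested were lower). GLUL in oligodendrocyte-like nuclei, its highest class, was at 301, 183 and 358 CPM in intact and 335, 331, 291 and 253 CPM in injured libraries, all inside the intact range. In microglia-like nuclei GLUL was at 76.2 to 113 CPM in intact cord, and its injured levels of 72.8, 222, 118.5 and 213 CPM did not reach 2-fold over intact lumbar cord.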

How the data were processed

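Nuclei from 7 spinal cord libraries were profiled with 10x v3 chemistry. With Cell Ranger 6.0.0 and the Mmul_10 build, the authors made filtered matrices, which they deposited as raw UMI counts. Their own doublet removal and cell type labels were not used here. Of 35432 identifiers, 959 without a symbol were named from the reference gene table. Of 69332 barcodes, 67084 had more than 1000 UMIs and 500 genes, with haemoglobin below 5% and mitochondrial transcripts below 10% of UMIs, and removing the top 5% of Scrublet scores per library (scanpy 1.11.5) left 63730. Clusters came from 2000 variable genes, 30 principal components, 20 neighbours and the Leiden method (leidenalg 0.10.2, igraph 0.11.9, resolution 1), using scipy 1.17.1, scikit-learn 1.9.0, numpy 2.4.6, matplotlib 3.10.9 and pandas 2.3.3 in Python 3.11.15. A cluster was named by the class whose markers led it. The limits on a second class (its score above 0.5 of the best and above 0.2, or above 0.3 where most leading genes were of that class) were set after the clusters were seen.

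UMI counts were summed by class and library and scaled to CPM. Genes with a mean of at least 20 CPM over the 7 libraries were tested against the 2-fold rule. With 1 library per group, no p-value was computed. Free RNA was not subtracted, and depth limits low values, as their counting intervals show. The self-test put changes larger than the 2-fold limit into Poisson counts drawn from 1 pooled astrocyte-like profile, and most were recovered. It held no change near 2-fold and no difference in type mix or between animals, so it says nothing of those. The genes, lists and types were chosen with earlier results of these data known. From each list the gene counted the same way in the most injured libraries was named, with any counted in all 4 and the family relatives of the 8 genes. SLC38A1, GOT1, AGRN and the dystrophin complex genes were named after their values were seen, and a few genes of the lists are not reported here. Alternatives tried are described at the end.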

Additional observations from a re-analysis of the deposited data

Results flagged for a closer look

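The log2 ratio of SLC1A3 to intact lumbar cord was above 0 in astrocyte-like nuclei and below 0 in oligodendrocyte-like and microglia-like nuclei in every injured library. In astrocyte-like nuclei its log2 ratios were 0.64, 0.31, 0.45 and 0.08 at 7 dpi, 14 dpi, 30 dpi and 6 mpi. In oligodendrocyte-like nuclei they were -0.82, -1.38, -0.62 and -0.84, and in microglia-like nuclei -1.09, -1.43, -0.53 and -0.28. The difference between classes was not tested, since each group was 1 library. No astrocyte-like value reached 2-fold, and at 6 mpi both the astrocyte-like and the microglia-like level lay inside their intact ranges. The astrocyte ratio at 6 mpi was -0.13 in white-matter type nuclei and -0.08 without doublet removal.

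Different clusters held most of the last 2 classes in intact and injured libraries. The cluster led by MRC1 and FKBP5 held 1560, 2316 and 1772 of the intact microglia-like nuclei and 2, 0, 3 and 18 of the injured ones. The astrocyte-like class consisted of the same 2 clusters in all libraries.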

How the results depend on the processing

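No paired analysis was possible because each group holds 1 library, and for the same reason no replicate could be left out. Over all alternatives, 592 values of the 8 genes were recomputed, of which 357 moved by less than their counting interval and 234 by more. The remaining value was the only one counted as higher or lower that changed sign, SLC14A1 at 6 mpi, with a log2 ratio of 0.34 in gray-matter type nuclei. Values not counted also changed sign, such as GLUL at 7 dpi to 30 dpi (1.26 to 1.31) and SLC1A3 at 6 mpi (-0.13), both in white-matter type nuclei. At 7 dpi, 1 gene instead of 2 was lower by the mean of CPM over nuclei, after thinning to 1000 UMIs, with median-ratio size factors, with the class of each nucleus set by itself, and without nuclei with as many markers of another class (each time SLC14A1, without SLC1A2), and also in white-matter type (SLC14A1) and gray-matter type nuclei (SLC1A2). At 14 dpi, 1 gene instead of 0 was lower by the mean over nuclei, after thinning, against the mean of the 3 intact libraries and without doublet removal (SLC14A1), and in gray-matter type nuclei and with both types weighted equally (SLC1A2). At 30 dpi, 2 genes were lower with the class of each nucleus set by itself. At 6 mpi, 2 were lower in each type, with both types weighted equally, and against an intact range without the thoracic library, which also made 3 genes lower at 7 dpi, with SLC6A11. The thoracic library had 1 gene lower instead of 3 in white-matter type nuclei and 0 in gray-matter type nuclei or with both types weighted equally. At 7 dpi, 2 genes instead of 1 were higher without nuclei with other markers and in each type. At 14 dpi, 1 was higher in white-matter type nuclei, and at 30 dpi 1 was higher there and without nuclei with other markers. Equal weighting and the range without the thoracic library were chosen after seeing the data. The causes were not tested. With genes from a mean of 5 CPM, the share of all genes higher was 7.04% at 14 dpi and 16.8% at 6 mpi, against 2.79% and 6.64% from 20 CPM. Median-ratio scaling moved the median log2 ratio of all genes in the thoracic library from 0.11 to 0.01. Depth limits white-matter type values at 6 mpi, where GLUL had 3, EDNRB 16, SLC6A11 17 and GJA1 31 UMIs.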

Other observations

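Over 42 points, each 1 class in 1 library, the 3 genes with the pattern most like each of the 8 were read from 6725 genes by Pearson's r of log levels, as a description with no test. The points share libraries and the classes set most of each correlation. SLC1A2 was most like PDZRN4 (0.972), GPM6A (0.970) and RNF182 (0.962), AQP4 was most like SPARC (0.974), MLC1 (0.959) and MSI2 (0.955), and GJA1 was most like AGT (0.965), CYP4F8 (0.961) and EFEMP1 (0.961). SLC6A11 was most like MAOB (0.960), ANOS1 (0.958) and MAPK4 (0.944), EDNRB was most like CYP1D1 (0.946), ITPRID1 (0.944) and ARSF (0.942), and SLC14A1 was most like CD38 (0.944), RNF19A (0.924) and LFNG (0.922). SLC1A3 and GLUL, the genes not highest in astrocyte-like nuclei throughout, had lower values: SLC1A3 was most like LATS2 (0.931), CTNNA1 (0.894) and FAM228B (0.889), and GLUL was most like NFE2L2 (0.919), MTMR10 (0.902) and EHHADH (0.902).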
